A study of Mus musculus with 4 samples.

Results

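Germline, meiosis and piRNA pathway genes were examined in mouse haploid embryonic stem cells (haESCs) by mRNA sequencing. A gene belonged to the set if its symbol in the expression files equaled 1 of 42 listed names, and 41 were found among 23235 symbols. The remaining name, Meioc, is not a symbol in the files. RefSeq gives Gm1564 as a synonym of Meioc, and that row is described separately and enters no count. The names had been chosen by function and not by a measured value in these samples, although earlier results of these data were known when they were listed.

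All 4 samples came from HG165, an androgenetic haESC line established from C57BL/6 mice, which carries a paternal genome and no maternal one. The DMSO group (2 samples) received the solvent, and the RDF group (2 samples) received Repsox, an inhibitor of TGF-β signaling, DMH1, an inhibitor of BMP signaling, and Forskolin, an activator of adenylate cyclase. The comparison asks which transcripts accompany RDF, a mixture studied for its effect on the loss of haploidy. The treatment length, sorting and ploidy of the sequenced cells are not given in the sources used here, and neither is whether replicates were separate cultures. Doses are given for the screen of a larger mixture and not for these samples. The labels describe culture on feeder cells, whereas the methods say that most experiments, with exceptions that do not include sequencing, were done without them. The p-values therefore measure the spread between these samples of a single line, which may be technical.

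Germ cells silence transposons with small RNAs bound by PIWI proteins (piRNAs), which are made in cytoplasmic granules called nuage by Tudor-domain proteins and helicases. In meiosis, cohesins and axis proteins organize the chromosomes, SPO11 cuts the DNA, DMC1 helps repair the breaks on the homologous chromosome, and the synaptonemal complex holds homologs together. In somatic tissues many of these genes are silenced by promoter DNA methylation or by a Polycomb complex that contains MGA, MAX, E2F6 and L3MBTL2. Mouse embryonic stem cells are known to transcribe some of them without entering meiosis.

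Levels are FPKM (fragments mapped, scaled to transcript length and library size), as deposited. A change is the difference of mean log2(FPKM + 1), RDF minus DMSO, a scale that understates the change of low genes. It is given with its standard error (SE) and an adjusted p from limma with Benjamini-Hochberg adjustment. The test covered the 11733 genes that averaged 1 FPKM or more, and an adjusted p below 0.05 was called a change. The libraries hold an estimated 9920000 to 12460000 fragments each, inferred from steps in low values. At these depths 45.4% to 49.5% of those values lay within 0.1 of a whole fragment, where evenly spread values would give 20%. The depths were chosen to bring the same values nearest to whole fragments, so that choice raises the share. With 2 samples a group, exact permutation cannot reach a two-sided p under 0.333, and it was not used.

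Most of these genes were detected, and their levels spanned several orders of magnitude. Of the 41 found, 29 passed the filter, 12 lay below it, and Spo11, the enzyme that makes meiotic DNA breaks, was listed at 0 in every sample. The mean was at least 10 FPKM for 14 of 41 (34.1%), beside 25.4% of all symbols. Syce2, a central element protein of the synaptonemal complex, had the highest level, at 110.6 and 126.5 FPKM in DMSO and 136.3 and 131.6 FPKM in RDF. The members below the filter were mostly nuage genes (5) and genes of meiotic entry and recombination (5).

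**Figure D1:**
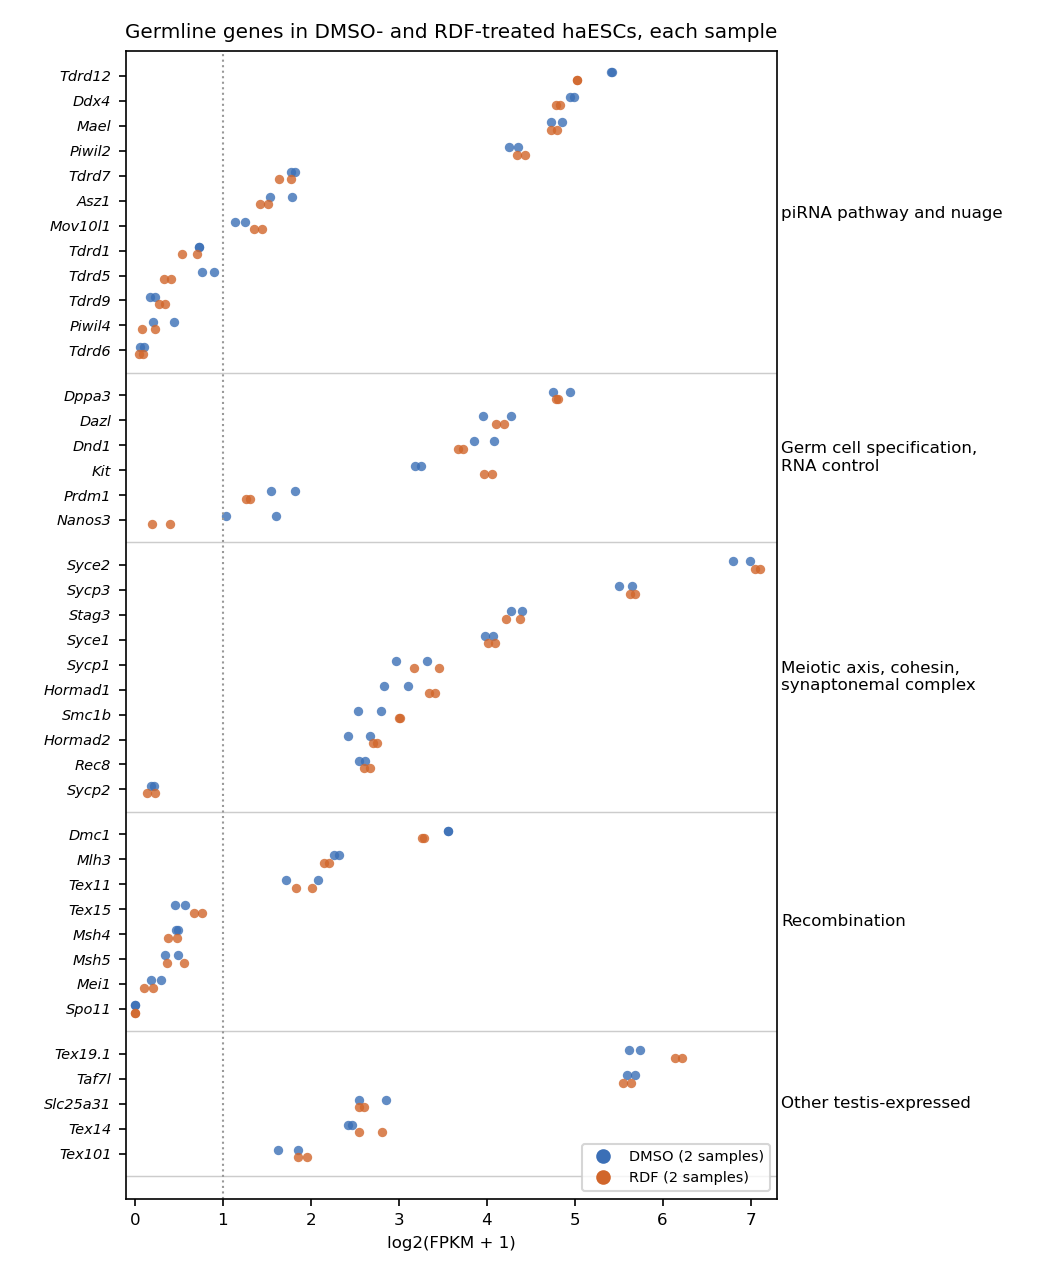
Level of each found member in each sample, as log2(FPKM + 1), grouped by role. Points are single samples of the DMSO and RDF groups, and the dotted line marks 1 FPKM. Tdrd12, Dppa3, Syce2, Dmc1 and Tex19.1 lie at the top of their groups, and Spo11 lies at 0.

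RDF was accompanied by small changes in a minority of the genes. Kit, Tex19.1 and Hormad1 rose, Tdrd12 and Dmc1 fell, and 24 of the 29 tested members did not pass the test. The 5 calls are 17.2% of the tested members, beside 21.6% of all tested genes (13.3% higher and 8.28% lower in RDF), so the share was near the background. The median change was 0.03 for the members and 0.03 for all genes, and the median size of change was 0.16 in both. No tested member differed by more than 1 on the log2 scale, a size that 1.41% of all genes passed. The RDF values lay above both DMSO values for 8 members and below both for 7, and overlapped for 14. Such separation held for 65.5% of all genes, 37.1% with RDF higher and 28.5% with RDF lower. Replicates of the members differed by a median of 0.13 in DMSO and 0.07 in RDF on the log2 scale, beside 0.09 and 0.09 for all genes.

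**Figure D2:**
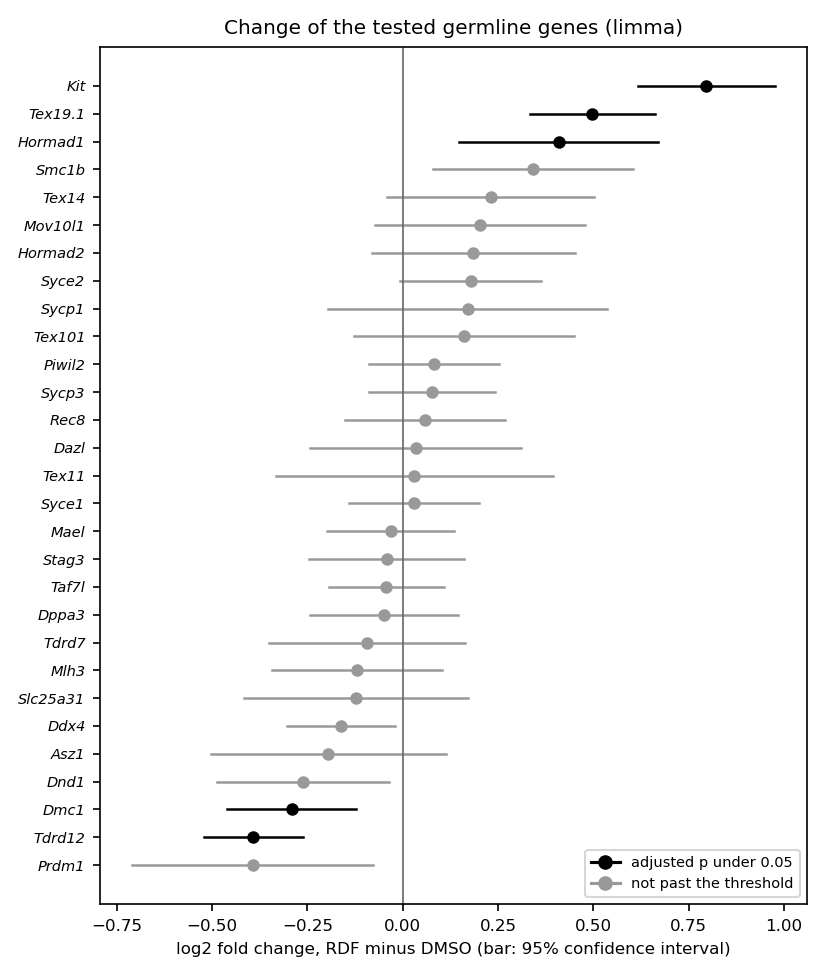
Change of each tested member, as the difference of mean log2(FPKM + 1), RDF minus DMSO, with its 95% confidence interval from limma. Black marks the 5 members with an adjusted p under 0.05, Kit, Tex19.1 and Hormad1 to the right of 0 and Tdrd12 and Dmc1 to the left, and gray the other 24.

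The promoter windows of the 5 called genes are shown because these are the members that passed the test. The sequences are from RefSeq on GRCm38.p6, cover 250 bases before to 50 bases after a transcript start, and read 5′ to 3′ along the gene. Capitals mark CACGTG, a site bound by MAX-containing dimers, and GCGGGAA or its reverse complement TTCCCGC, a site of the kind bound by E2F proteins. Where RefSeq holds several starts, the window with the lowest coordinate is shown. Kit lies at chr5:75574737-75575036 on the plus strand, Tex19.1 at chr11:121145893-121146192 on the plus strand and Hormad1 at chr3:95559427-95559726 on the plus strand. Tdrd12 lies at chr7:35537666-35537965 on the minus strand and Dmc1 at chr15:79605060-79605359 on the minus strand.
Kit: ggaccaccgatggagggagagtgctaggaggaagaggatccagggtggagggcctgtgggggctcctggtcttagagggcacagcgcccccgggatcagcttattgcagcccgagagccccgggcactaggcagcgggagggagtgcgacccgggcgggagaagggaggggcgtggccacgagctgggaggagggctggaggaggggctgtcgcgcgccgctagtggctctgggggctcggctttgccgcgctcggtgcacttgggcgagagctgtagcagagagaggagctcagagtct
Tex19.1: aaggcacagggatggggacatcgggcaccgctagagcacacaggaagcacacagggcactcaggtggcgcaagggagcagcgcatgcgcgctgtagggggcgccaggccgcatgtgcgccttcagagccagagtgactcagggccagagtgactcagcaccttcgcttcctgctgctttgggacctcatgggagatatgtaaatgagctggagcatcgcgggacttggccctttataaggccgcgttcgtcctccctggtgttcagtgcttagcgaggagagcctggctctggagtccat
Hormad1: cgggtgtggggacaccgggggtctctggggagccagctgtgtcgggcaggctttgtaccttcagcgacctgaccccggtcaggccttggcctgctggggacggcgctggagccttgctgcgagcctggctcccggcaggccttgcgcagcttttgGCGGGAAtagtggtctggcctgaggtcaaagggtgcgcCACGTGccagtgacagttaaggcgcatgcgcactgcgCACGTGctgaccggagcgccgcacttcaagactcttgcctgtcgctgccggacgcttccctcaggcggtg
Tdrd12: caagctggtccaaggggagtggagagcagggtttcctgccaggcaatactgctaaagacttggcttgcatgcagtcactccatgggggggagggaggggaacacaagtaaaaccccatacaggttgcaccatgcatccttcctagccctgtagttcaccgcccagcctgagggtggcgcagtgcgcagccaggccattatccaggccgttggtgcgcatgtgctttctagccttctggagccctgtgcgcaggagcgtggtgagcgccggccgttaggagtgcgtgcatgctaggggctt
Dmc1: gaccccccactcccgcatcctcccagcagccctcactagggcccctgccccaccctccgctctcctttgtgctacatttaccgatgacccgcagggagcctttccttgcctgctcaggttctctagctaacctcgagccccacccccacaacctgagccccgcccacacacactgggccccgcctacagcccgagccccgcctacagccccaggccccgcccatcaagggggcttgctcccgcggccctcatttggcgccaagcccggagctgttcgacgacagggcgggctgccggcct

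Among these 5 windows Hormad1 alone held either motif, and it held both. Only these exact letters were searched, so other forms of MAX or E2F sites are not marked and may be present. For comparison, Sycp3 at chr10:88459337-88459636 on the plus strand and Ddx4 at chr13:112652261-112652560 on the minus strand are shown. They are shown because their windows held both motifs while the genes did not pass the test.
Sycp3: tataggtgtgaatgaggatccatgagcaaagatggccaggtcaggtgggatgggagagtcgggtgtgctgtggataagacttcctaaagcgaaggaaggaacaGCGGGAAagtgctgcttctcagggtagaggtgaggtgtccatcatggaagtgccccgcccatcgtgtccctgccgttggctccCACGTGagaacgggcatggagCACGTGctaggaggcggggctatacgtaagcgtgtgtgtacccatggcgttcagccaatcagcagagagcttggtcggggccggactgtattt
Ddx4: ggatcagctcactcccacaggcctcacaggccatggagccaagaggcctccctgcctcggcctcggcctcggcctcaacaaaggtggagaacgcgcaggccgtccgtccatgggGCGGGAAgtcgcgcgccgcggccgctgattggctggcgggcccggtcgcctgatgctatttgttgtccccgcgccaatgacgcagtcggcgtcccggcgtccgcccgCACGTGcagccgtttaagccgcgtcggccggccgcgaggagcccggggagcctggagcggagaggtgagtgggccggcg

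Both strands were searched in all 300 bases. CACGTG was present for 12 of the 34 members with a RefSeq window (35.3%), beside 8.09% of 27025 genes, and GCGGGAA or TTCCCGC for 10 (29.4%), beside 5.29%. Both motifs stood in one window for 6 members, Ddx4, Hormad1, Slc25a31, Stag3, Syce2 and Sycp3 (17.6%, beside 0.514% of genes). The member windows held a median of 20 CG dinucleotides, beside 7 in all windows. Among genes with at least 10 CG in a window, the shares were 38.7% and 11.8% for CACGTG and 32.3% and 10.1% for GCGGGAA. TGACGTCA, a site bound by the cAMP-responsive factor CREB, was found in 0 member windows and for 2.03% of all genes. With at least 10 CG in a window, it was found for 0 of 31 members and 3.62% of 12388 genes. At shares this small, 0 hits in so few windows does not show that the members lack CREB sites. Of the tested members with a window, 1 of 12 with CACGTG or GCGGGAA was called, and 4 of 13 with neither, beside 21.6% of all tested genes. The share called among all genes with or without these motifs was not computed, and the counts are too small to compare. These counts are descriptions without a test.

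Germ cell specification genes included the largest change among the 29 tested members. Kit, the receptor for stem cell factor and a survival receptor of primordial germ cells, lies at chr5:75970941-76052747 on the plus strand in NCBIM37, the assembly also called mm9. Its level was 8.52 and 8.08 FPKM in DMSO and 14.7 and 15.6 FPKM in RDF. Both RDF samples lay above both DMSO samples, and the group means differed 1.83-fold. The change was 0.80 (SE 0.0739, 95% confidence interval 0.62 to 0.98, adjusted p = 0.00231 in limma), and Kit passed the test under every alternative run, with adjusted p between 0.00229 and 0.0399.

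The other tested specification genes did not pass. Prdm1, a transcriptional repressor that starts the primordial germ cell program, was at 2.54 and 1.92 FPKM in DMSO and 1.49 and 1.41 FPKM in RDF, with a change of -0.39 (SE 0.130, adjusted p = 0.0792 in limma). Its RDF values lay below both DMSO values, as did those of Dnd1, an RNA-binding protein needed for germ cell survival, at 15.9 and 13.4 FPKM in DMSO and 12.3 and 11.8 FPKM in RDF (-0.26, adjusted p = 0.0946 in limma). Dnd1 exons overlap Wdr55 on the opposite strand. Dppa3, known as Stella, which protects maternal methylation in the zygote, overlapped between groups at 25.9 and 29.9 FPKM in DMSO and 27.1 and 26.6 FPKM in RDF. Dazl, a translational regulator of germ cells, also overlapped, at 18.4 and 14.5 FPKM in DMSO and 17.3 and 16.2 FPKM in RDF.

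Nanos3, an RNA-binding protein that keeps primordial germ cells alive, fell below the filter with a mean under 1 FPKM. It lies at chr8:86697632-86700451 on the minus strand in NCBIM37. Its level was 1.05 and 2.05 FPKM in DMSO and 0.149 and 0.318 FPKM in RDF, which corresponds to an estimated 7.6 and 16.7 fragments and 1.4 and 2.6 fragments. The RDF values were both lower, and the log2 difference was -1.02. With a filter at a mean of 0.25 FPKM, Nanos3 passed (adjusted p = 0.0224 in limma), but its RDF values averaged 0.234 FPKM, so it passed that filter only through the DMSO samples. Without a filter it did not pass (adjusted p = 0.0578 in limma).

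The piRNA and nuage genes had 1 call among 7 tested (14.3%, beside 21.6% of all tested genes), and 5 were below the filter. Tdrd12, a Tudor-domain helicase needed for secondary piRNA production, lies at chr7:36254117-36322764 on the minus strand in NCBIM37. Its level was 41.9 and 41.6 FPKM in DMSO and 31.6 and 31.6 FPKM in RDF. The replicates lay close together and the groups did not overlap, and the DMSO mean was 1.32 times the RDF mean. The change was -0.39 (SE 0.0533, adjusted p = 0.00652 in limma). Without RDF replicate 1 the adjusted p was 0.0559, and without RDF replicate 2 it was 0.0589, within a range of 0.00564 to 0.0589 over the alternatives.

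The remaining piRNA genes did not pass. Ddx4, the germ cell helicase also called VASA, was at 30.8 and 29.8 FPKM in DMSO and 26.5 and 27.5 FPKM in RDF, with no overlap and a change of -0.16 (SE 0.0581, adjusted p = 0.0991 in limma). Piwil2, a PIWI protein that binds piRNAs, overlapped at 19.4 and 18.1 FPKM in DMSO and 19.3 and 20.6 FPKM in RDF. Mael, which acts in transposon silencing, was at 25.6 and 27.9 FPKM in DMSO and 25.5 and 26.9 FPKM in RDF (-0.03). The changes of these 3 genes ran from -0.16 to 0.08.

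Lower in level, Asz1, an ankyrin-repeat protein of nuage, was at 1.90 and 2.46 FPKM in DMSO and 1.68 and 1.85 FPKM in RDF (-0.20). Mov10l1, the helicase that starts piRNA processing, was at 1.21 and 1.38 FPKM in DMSO and 1.72 and 1.56 FPKM in RDF (0.20), and Tdrd7 was at 2.54 and 2.42 FPKM in DMSO and 2.11 and 2.42 FPKM in RDF (-0.09). Asz1 and Mov10l1 did not overlap and moved in opposite senses, but neither passed. Tdrd5, another Tudor protein of nuage, fell below the filter at 0.865 and 0.693 FPKM in DMSO and 0.259 and 0.325 FPKM in RDF, with a log2 difference of -0.46. With a filter at 0.25 FPKM its adjusted p was 0.0412, and without a filter 0.0431 in limma. Its longest annotated transcript gives an estimated 87.4 fragments over the 4 samples, and its shortest gives 14.4. At the 0.25 FPKM filter 17.8% of 13998 genes were called, and 6.93% were called lower in RDF. Piwil4, Tdrd1, Tdrd6 and Tdrd9 stayed between 0.0336 and 0.663 FPKM in all samples.

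The meiotic axis, cohesin and synaptonemal complex genes had a median change of 0.17, beside 0.03 for all tested genes. Of 9 tested, 1 was called (11.1%, beside 21.6% of all tested genes). Hormad1, a HORMA-domain protein of the unsynapsed axis, lies at chr3:95363599-95391593 on the plus strand in NCBIM37. Its level was 7.59 and 6.15 FPKM in DMSO and 9.15 and 9.67 FPKM in RDF. The groups did not overlap, and the change was 0.41 (SE 0.107, adjusted p = 0.0425 in limma). The call was close to the threshold, with adjusted p from 0.0205 to 0.190 over the alternatives and above 0.05 in 8 of them.

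Of the 9 tested genes, 8 had a change above 0, but Syce1 reversed with median-ratio scaling or quantile normalization and Rec8 with quantile normalization. The median over all tested genes also lay above 0, at 0.03. Smc1b, a meiotic cohesin subunit, was at 5.949 and 4.797 FPKM in DMSO and 7.074 and 7.002 FPKM in RDF, with no overlap and a change of 0.34 (SE 0.108, adjusted p = 0.0712 in limma). Syce2 did not overlap either, with a change of 0.18 (SE 0.0755, adjusted p = 0.141 in limma). Hormad2, the partner of Hormad1, was at 4.36 and 5.38 FPKM in DMSO and 5.77 and 5.52 FPKM in RDF (0.18, adjusted p = 0.266 in limma). These 3 genes were higher in both RDF samples without passing the test. With Hormad1, 4 of the 9 tested genes separated upward, beside 37.1% of all tested genes.

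The other axis and cohesin genes overlapped between groups. Sycp3, a lateral element protein whose exons overlap Chpt1 on the opposite strand, was at 49.2 and 44.5 FPKM in DMSO and 48.3 and 50.4 FPKM in RDF (0.08). Sycp1, the transverse filament protein, was at 9.005 and 6.801 FPKM in DMSO and 9.997 and 7.991 FPKM in RDF (0.17). Stag3, a meiotic cohesin subunit, was at 20.2 and 18.4 FPKM in DMSO and 17.6 and 19.9 FPKM in RDF (-0.04). These differences were no larger than the spread between replicates. Rec8, the meiotic kleisin, was at 4.85 and 5.16 FPKM in DMSO and 5.11 and 5.39 FPKM in RDF (0.06), and Syce1, a central element protein, was at 15.8 and 14.8 FPKM in DMSO and 16.1 and 15.2 FPKM in RDF (0.03). Sycp2, a lateral element protein, lay below the filter between 0.0996 and 0.169 FPKM.

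Genes of meiotic entry and recombination were the least expressed group, with 3 tested and 1 called (33.3%, beside 21.6% of all tested genes). Dmc1, the meiosis-specific recombinase, lies at chr15:79391930-79435529 on the minus strand in NCBIM37. Its level was 10.8 and 10.8 FPKM in DMSO and 8.60 and 8.75 FPKM in RDF, with no overlap. The change was -0.29 (SE 0.0696, adjusted p = 0.0332 in limma), and the adjusted p ran from 0.0207 to 0.132 over the alternatives. The call was lost without any 1 of the 4 samples (adjusted p = 0.0982, 0.102, 0.132 and 0.121 in limma without DMSO replicate 1, DMSO replicate 2, RDF replicate 1 and RDF replicate 2) and without a filter (0.0601).

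Mlh3, a crossover mismatch repair protein, was at 4.02 and 3.81 FPKM in DMSO and 3.43 and 3.61 FPKM in RDF (-0.12). Tex11, an X-linked meiotic crossover gene, was at 3.23 and 2.29 FPKM in DMSO and 3.05 and 2.58 FPKM in RDF (0.03). Mlh3 was lower in both RDF samples and Tex11 overlapped, and neither passed the test. Mei1, Msh4, Msh5 and Tex15, all with roles in meiotic recombination, stayed between 0.0711 and 0.702 FPKM. Gm1564, the synonym row of Meioc, whose protein keeps germ cells in meiotic prophase, was at 4.36 and 3.81 FPKM in DMSO and 2.55 and 2.40 FPKM in RDF. The groups did not overlap, and the change was -0.55 (SE 0.103, adjusted p = 0.0165 in limma). The adjusted p ran from 0.0133 to 0.09996 over the alternatives.

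Of the other testis-expressed genes, 1 of 5 was called (20%, beside 21.6% of all tested genes). Tex19.1, which restrains retrotransposons in germ cells and placenta, lies at chr11:121007457-121009633 on the plus strand in NCBIM37. Its level was 47.9 and 52.6 FPKM in DMSO and 73.3 and 69.3 FPKM in RDF, with a 1.42-fold difference of means and no overlap. The change was 0.50 (SE 0.0674, adjusted p = 0.00644 in limma). The adjusted p was above 0.05 without RDF replicate 1 (0.0612) and without RDF replicate 2 (0.0527), within a range of 0.00652 to 0.0612. Its paralog Tex19.2, which could share reads with it, was at 2.47 and 2.40 FPKM in DMSO and 2.06 and 2.52 FPKM in RDF.

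Taf7l, a germ cell TFIID subunit, was at 50.4 and 47.3 FPKM in DMSO and 46.0 and 48.7 FPKM in RDF (-0.04). Tex14, a protein of germ cell intercellular bridges, was at 4.38 and 4.53 FPKM in DMSO and 4.85 and 6.01 FPKM in RDF (0.23, adjusted p = 0.187 in limma), and Tex101, a germ cell surface protein, was at 2.628 and 2.101 FPKM in DMSO and 2.619 and 2.885 FPKM in RDF (0.16). Slc25a31, a testis form of the mitochondrial ADP/ATP carrier, was at 4.83 and 6.22 FPKM in DMSO and 4.83 and 5.10 FPKM in RDF (-0.12). Tex14 was higher in both RDF samples, and none of these 4 passed the test.

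**Figure D3:**
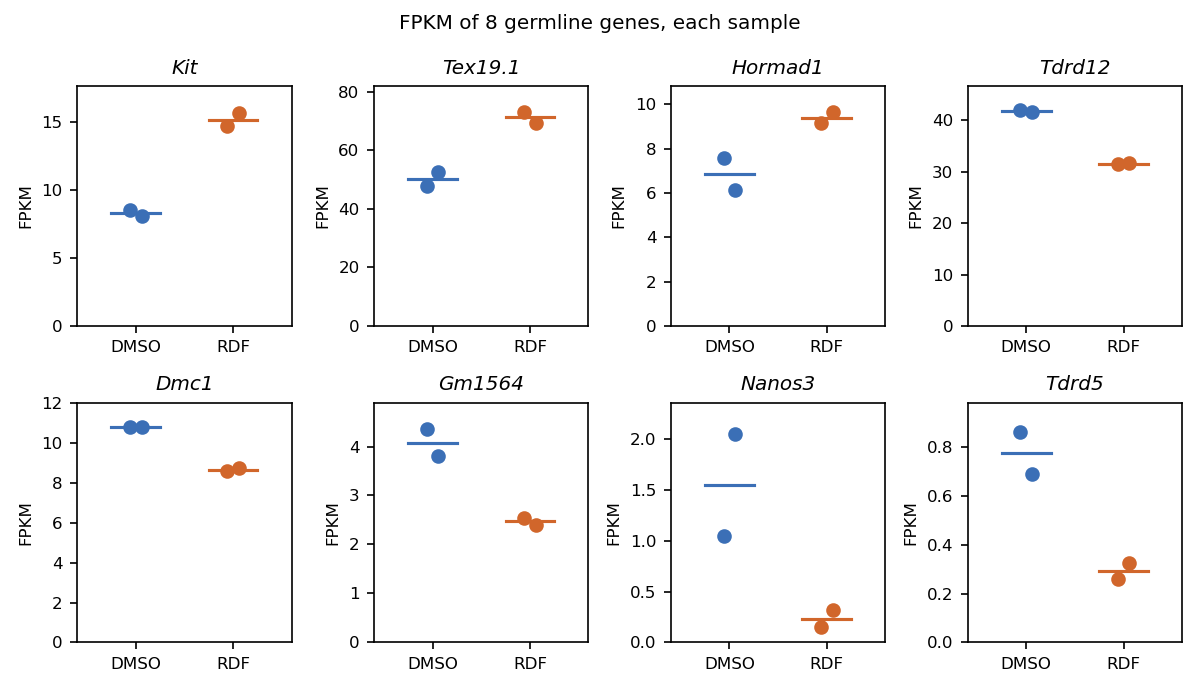
FPKM of Kit, Tex19.1, Hormad1, Tdrd12, Dmc1, Gm1564, Nanos3 and Tdrd5 in each sample, with the mean of each group as a line and separate axes per gene. The groups do not overlap in any of the 8 panels, with Kit, Tex19.1 and Hormad1 higher in RDF and the others lower. The genes were picked because they passed the test or, for Nanos3 and Tdrd5, after their values were seen. Their separation follows from that choice, and 65.5% of all tested genes separate.

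The members were compared with other genes of the same pathways, chosen with earlier results known. Of 51 further pathway genes, 50 were found and 34 tested, with 4 higher and 2 lower in RDF (17.6%, beside 21.6% of all tested genes). The median change was -0.05. The piRNA list had 12 tested, of which Fkbp6 and Rnf17 rose and Dnmt3l and Ddx25 fell. The meiosis list had 16 tested, of which Sun1 rose, and the specification list had 6 tested, of which Tfap2c rose.

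Fkbp6, an immunophilin-like piRNA factor, was at 17.0 and 17.5 FPKM in DMSO and 29.1 and 29.7 FPKM in RDF (0.74, SE 0.0589, adjusted p = 0.00159 in limma). Tfap2c, a transcription factor of primordial germ cell specification, was at 27.2 and 25.1 FPKM in DMSO and 48.3 and 50.7 FPKM in RDF (0.90, adjusted p = 0.00119 in limma). Dnmt3l, the cofactor of germline DNA methylation, was at 540 and 483 FPKM in DMSO and 280 and 274 FPKM in RDF (-0.88, adjusted p = 0.00159 in limma). The changes of Tfap2c and Dnmt3l were larger in size than that of any tested member, and that of Fkbp6 was larger than any except Kit. Sun1, a nuclear envelope protein that tethers meiotic telomeres, was at 39.9 and 39.1 FPKM in DMSO and 49.8 and 51.9 FPKM in RDF (0.36), Rnf17, a Tudor protein, at 22.7 and 21.7 and 26.2 and 26.0 FPKM (0.23), and Ddx25, a testis helicase, at 4.90 and 5.70 and 3.95 and 3.86 FPKM (-0.36). Stra8, the retinoic acid-responsive gene that gates meiosis, was at 20.9 and 18.9 FPKM in DMSO and 95.5 and 88.5 FPKM in RDF (2.15, adjusted p = 0.000143 in limma).

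The repressors known to silence germline genes were tested as a separate list of 19, of which 1 rose and 3 fell (21.1%, beside 21.6% of all tested genes). Mga, the scaffold of the Polycomb complex named above, was at 8.16 and 8.51 FPKM in DMSO and 12.8 and 14.4 FPKM in RDF (0.65, adjusted p = 0.00555 in limma). L3mbtl2, a subunit of the same complex, was at 36.9 and 37.3 FPKM in DMSO and 28.8 and 27.2 FPKM in RDF (-0.39, adjusted p = 0.00843 in limma). The methyltransferases Dnmt3a, at 16.4 and 16.5 FPKM in DMSO and 10.7 and 11.3 FPKM in RDF (-0.54), and Dnmt3b, at 43.6 and 41.8 FPKM in DMSO and 35.3 and 36.3 FPKM in RDF (-0.25), were also lower, while the other 15 repressors did not pass.

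**Figure D4:**
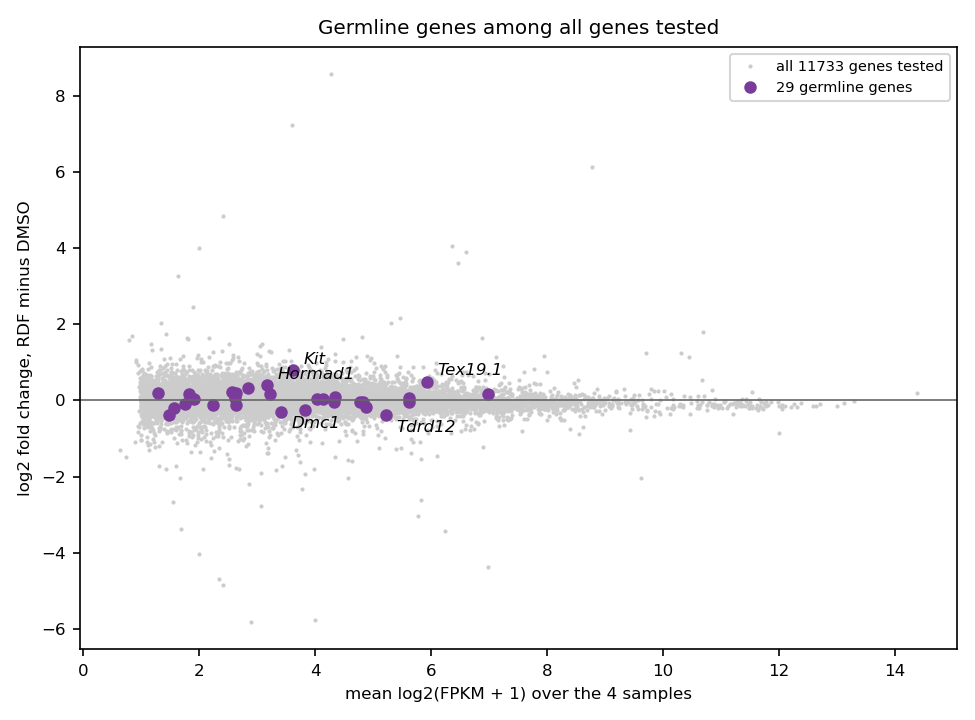
Change against mean level for all 11733 tested genes in gray and the 29 tested members in purple, both axes on the log2 scale. The 5 called members are named, and all 29 lie within 0.80 of 0 while single genes reach beyond 2.

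Markers of other cells were measured beside these genes. All 8 pluripotent stem cell markers had a mean of at least 10 FPKM, and they summed to 7748 to 7808 FPKM in DMSO and 4547 to 5017 FPKM in RDF. Sox2 and Zfp42 rose, and Pou5f1, Tdgf1, Dppa5a and Utf1 fell, so 75% of the 8 were called, beside 21.6% of all tested genes. Dppa5a made up most of the sum, at 5493 and 5539 FPKM in DMSO and 3232 and 2839 FPKM in RDF. Of 8 markers of differentiated male germ cells, Prm1, Acrv1 and Pgk2 were at 0 in every sample, Ldhc made up most of the sum at 7.87 to 8.42 FPKM, and the sums were 9.02 to 9.70 FPKM in DMSO and 8.41 to 8.56 FPKM in RDF. Fibroblast markers summed to 36.3 to 36.8 FPKM in DMSO and 22.6 to 24.3 FPKM in RDF, and none was at 0. Of 8, 6 were tested, with 1 rising (Dcn) and 4 falling (Col1a1, Col1a2, Postn and Thy1). These calls were 83.3% of those tested, beside 21.6% of all tested genes. The fibroblast markers did not move together. Pdgfrb was higher in both RDF samples without passing, and Col3a1, below the filter, overlapped. Lum, also below the filter, was at 0.110 and 0.0485 FPKM in DMSO and 0.513 and 0.827 FPKM in RDF. Primitive endoderm markers summed to 6.26 to 7.67 and 10.5 to 11.1 FPKM, with Gata6 rising among 2 tested of 7. Two-cell-like markers summed to 4.86 to 6.32 and 3.56 to 4.02 FPKM, with Usp17la falling among 2 tested of 7 and Tcstv1 and Tcstv3 at 0. Postn and Usp17la averaged 0.690 and 0.801 FPKM in RDF, so both passed the filter only through the DMSO samples. The part of these lists in the changes of the members was not tested. In bulk samples, fewer cells of a type and less RNA per cell cannot be told apart.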

How the data were processed

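A stranded mRNA kit was used on 150 ng of RNA per sample. The authors mapped reads with TopHat2 2.0.14 and Bowtie2 2.1.0 and deposited FPKM from Cufflinks 2.2.1 on mm9. Tool versions are per the labels, and the parameters, the use of strand and the treatment of multiply mapped reads are not given in the sources used here. FPKM hold no counts, so depth was estimated from value steps of genes with transcripts of at least 1500 nucleotides and covers counting error only.

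Samples were grouped by title. log2(FPKM + 1) values of 11733 genes averaging 1 FPKM or more went into limma 3.58.1 under R 4.3.3 (lmFit, eBayes with trend, no block), with Benjamini-Hochberg adjustment over all of them. On simulated data with 11733 genes, the fit recovered 88 of 100 genes changed by 1 on the log2 scale and 37 of 100 changed by 0.5. There were 5 false calls. The simulation changed far fewer genes than the 2533 called in the data, so these shares need not hold for this comparison. Alternatives were another pseudocount, filter, scaling, variance model and the block, and leaving out each sample. Members and lists were chosen with earlier results of these data known. Members with a mean of at least 1 FPKM are given with each value, and the others by range, except Nanos3 and Tdrd5, which were singled out after their values were seen. Genes of other lists are named where they passed the test. Positions are from GENCODE on NCBIM37 and promoters from RefSeq on GRCm38.p6, and the builds were not mixed.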

Additional observations from a re-analysis of the deposited data

How the results depend on the processing

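With 2 samples a group and unknown handling of shared reads, a change can be missed, so a member without a call is not shown to be unchanged. Of 319 recomputed values over the members, 279 kept their direction and side of the threshold, 17 lost and 4 gained a call, and 19 changed sign. Kit passed in every alternative. Without a filter, 942 genes were higher and 606 lower in RDF. The share of calls that were higher in RDF was 61.6%, and it was 53.0% with median-ratio scaling (1333 higher, 1181 lower) and 53.4% with quantile normalization (1247 higher, 1089 lower). A filter at 0.25 FPKM gave 4 of 35 tested members lower in RDF (Dmc1, Nanos3, Tdrd12 and Tdrd5), beside 6.93% of 13998 genes. Of these, Nanos3 averaged 0.234 FPKM in RDF and passed that filter only through the DMSO samples. The same filter removed the call of Hormad1 (adjusted p = 0.0504 in limma). Counted by the ratio of group means, 161 genes were over 2-fold higher and 182 over 2-fold lower, beside 74 and 91 on the log2 scale, which the pseudocount of 1 shrinks, and no tested member by either.

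Leaving out each sample gave 253 to 1121 genes higher and 195 to 731 lower, 1 to 4 members higher and 0 to 3 lower, and 2 to 4 other pathway genes higher and 1 to 2 lower. Without RDF replicate 1, 358 genes were higher and 235 lower, and without RDF replicate 2, 253 and 195, and Kit was then the only called member. The lone sample of a group is assumed to vary like the other group. With the replicate number as a block, 1651 genes were higher and 1066 lower, the other pathway genes had 5 higher and 1 lower, and the same 5 members were called. Whether same-numbered samples were paired is not given in the sources used here. Their deviations from the group means had r = 0.134 and rho = 0.114 across 11733 genes, which are not independent replicates.

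Signs turned only for members without a call. With quantile normalization the change was -0.0105 for Dazl, -0.0037 for Rec8, -0.0177 for Syce1 and -0.0245 for Tex11, and with median-ratio scaling -0.0025 for Syce1. Leaving out each sample gave -0.128 to 0.196 for Dazl, -0.149 to 0.0492 for Dppa3, -0.0903 to 0.0282 for Mael, -0.277 to 0.0322 for Slc25a31, -0.124 to 0.0398 for Stag3, -0.0138 to 0.0724 for Syce1, -0.0090 to 0.350 for Sycp1, -0.0880 to 0.0015 for Taf7l and -0.153 to 0.212 for Tex11. The cause was not tested.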
